A study of Mus musculus with 9 samples.

Results

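The Krüppel-like factors (KLFs) examined were the 10 genes Klf2, Klf3, Klf4, Klf5, Klf6, Klf7, Klf9, Klf10, Klf13 and Klf15, taken by gene symbol from the 56953 genes of the deposited table. The cells were primary cardiac fibroblasts from hearts of adult male wild-type C57BL/6N mice, cultured and sequenced as polyA RNA 72 h after adenoviral infection. Each of the 3 groups had 3 libraries: Ad-GFP carried the green fluorescent protein control, Ad-JP2 carried junctophilin-2, and Ad-shJP2 carried a short hairpin RNA against junctophilin-2. Every group therefore shared the viral infection, and the labels do not say whether the libraries of a group were separate cultures or animals, so p-values may measure technical spread only. Values are TPM, transcript abundances scaled for transcript length and for the library's total.

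KLFs are transcription factors that share a C-terminal zinc finger domain and bind GC-rich and CACCC sequences, the same elements that the related SP factors bind. They are usually sorted by the cofactors they recruit. Klf2, Klf4, Klf5, Klf6 and Klf7 carry activation domains, Klf3 binds the corepressor CtBP, Klf9, Klf10 and Klf13 bind the corepressor SIN3A, and Klf15 stands outside these groups. In mesenchymal cells the family is known for rapid responses to serum, injury, TGF-beta and glucocorticoids, and several members act on growth and matrix genes.

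The windows around the RefSeq start sites of 8 of the 10 genes were read from the promoter table of build GRCm38.p6, from 250 bases before to 50 bases after the start. Klf5 and Klf10 had no entry there. The table gives GRCm38.p6, whereas the submitters' processing notes name GRCm39, so these positions hold for GRCm38.p6 only. The windows of Klf6, Klf4 and Klf9, whose messages differed in both virus comparisons with Ad-GFP, are printed beside that of Klf2, whose message passed the test in neither with the values as deposited but was lower in Ad-shJP2 after GC and length correction. Capitals mark GGGCGG, the GC box that SP and KLF proteins bind, or its complement CCGCCC. The Klf6 window is chr13:5861239-5861538 (+ strand), that of Klf4 chr4:55532426-55532725 (- strand), that of Klf9 chr19:23140976-23141275 (+ strand) and that of Klf2 chr8:72318812-72319111 (+ strand). All are given 5′ to 3′ along the gene.
Klf6: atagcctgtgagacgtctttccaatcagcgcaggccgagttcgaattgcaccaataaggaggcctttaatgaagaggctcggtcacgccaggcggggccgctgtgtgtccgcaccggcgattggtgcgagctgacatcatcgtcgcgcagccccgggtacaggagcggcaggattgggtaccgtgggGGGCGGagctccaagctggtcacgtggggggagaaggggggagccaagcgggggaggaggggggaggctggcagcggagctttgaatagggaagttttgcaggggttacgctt
Klf4: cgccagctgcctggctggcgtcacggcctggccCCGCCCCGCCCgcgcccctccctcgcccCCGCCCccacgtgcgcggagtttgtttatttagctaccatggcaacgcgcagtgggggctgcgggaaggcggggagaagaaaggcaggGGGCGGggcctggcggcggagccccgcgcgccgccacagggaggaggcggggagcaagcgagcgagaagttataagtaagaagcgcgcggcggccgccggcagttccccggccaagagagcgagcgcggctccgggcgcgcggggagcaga
Klf9: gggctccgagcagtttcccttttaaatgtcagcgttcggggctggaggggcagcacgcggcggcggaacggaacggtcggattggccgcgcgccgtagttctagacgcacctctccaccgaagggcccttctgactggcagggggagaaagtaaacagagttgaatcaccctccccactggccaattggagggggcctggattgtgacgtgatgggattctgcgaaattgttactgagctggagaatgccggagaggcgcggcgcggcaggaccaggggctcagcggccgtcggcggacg
Klf2: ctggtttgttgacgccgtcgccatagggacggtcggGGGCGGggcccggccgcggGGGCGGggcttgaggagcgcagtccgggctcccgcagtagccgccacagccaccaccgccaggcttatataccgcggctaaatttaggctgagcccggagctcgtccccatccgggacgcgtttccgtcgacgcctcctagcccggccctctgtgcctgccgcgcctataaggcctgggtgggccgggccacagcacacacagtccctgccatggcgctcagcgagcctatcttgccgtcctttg

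On either strand, GGGCGG was found 6 times in the Klf3 window, 4 times in Klf4, 3 times in Klf13, 2 times in Klf2, once each in Klf6, Klf7 and Klf15, and not in Klf9. Of all 32851 windows of this length 35.7% held at least 1. CCAAT was found 4 times in Klf6, 3 times in Klf9, 2 times in Klf13 and once in Klf15 (37.4% of all windows). CACGTG, the E-box that clock proteins bind, was found once each in Klf4 and Klf6 and 3 times in Klf15 (7.15% of all windows). A MEF2 site was found once, in Klf2 (3.19% of all windows), and TGANTCA, the AP-1 motif, once, in Klf9 (7.81%). CCACCC was found 3 times each in Klf3 and Klf7 and once each in Klf2 and Klf13 (31.5% of all windows). TATAAA (13.6% of all windows), TGACGTCA (1.79%), GGAAAA (23.4%) and the CArG box (1.63%) were found in none of the 8. The windows held 16 CG dinucleotides in Klf7 to 47 in Klf15, against a median of 7 over all windows. Motifs can overlap each other.

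Depth and purity set the frame for these values. Estimated from the steps of low values, depth in M reads was 40.6 to 45.7 for Ad-GFP, 36.8 to 41.1 for Ad-JP2 and 21.2 to 33.3 for Ad-shJP2. Jph2, the targeted gene, stood at 132, 127.5 and 128 TPM in Ad-GFP, 737, 691 and 637 TPM in Ad-JP2, and 116.5, 123 and 119 TPM in the libraries labelled Ad-shJP2. The Ad-shJP2 difference did not pass (log2 fold change -0.11, limma adjusted p = 0.072), so directions given for Ad-shJP2 below belong to the label of the virus and not to a measured loss of Jph2 message. The 8 fibroblast markers summed to 3380 to 3441 TPM in Ad-GFP, 3520.0 to 3675 under Ad-JP2 and 1994 to 2059 under Ad-shJP2. The 8 macrophage and leukocyte markers summed to 2704 to 2743, 2475 to 2516 and 3172 to 3219.8 TPM. Over all genes tested, 13.4% were called higher and 1.64% lower in Ad-JP2 (15.9% and 3.38% after GC and length correction). In Ad-shJP2, 21.8% were higher and 37.7% lower (corrected 18.2% and 40.9%). Beside these shares, 4 fibroblast genes were called higher and 0 lower in Ad-JP2 (corrected 1 and 0, the 1 of 8 being near the share). In Ad-shJP2 it was 1 and 7 (corrected 0 and 7), with Thy1 rising from 149 to 179 TPM. Calls in the second list were 1 higher and 2 lower in Ad-JP2 (corrected 4 and 0). In Ad-shJP2 they were 6 and 1 (corrected 3 and 1). The macrophage and leukocyte sum was mostly Lyz2 (1730 TPM in Ad-GFP). Ptprc was at 0.592, 2.07 and 0.240 TPM in the same group order. It reached 1 TPM only in Ad-JP2, and so passed the filter on low values through the group where it was high. In bulk RNA, fewer cells of a type and less RNA per cell cannot be told apart, and the part these marker shifts have in the KLF values was not tested. The 9 endothelial markers summed to 44.3 to 46.7, 41.3 to 47.6 and 37.7 to 49.8 TPM, overlapping between all groups. Emcn alone held 26.1 TPM in Ad-GFP, and Kdr was at 0.06 to 0.37 TPM in all 9 libraries. Of 7 tested, 0 were called higher and 1 lower in Ad-JP2 (corrected 0 and 0). In Ad-shJP2 it was 0 and 2 (corrected 0 and 1), not above the share of all genes called lower. The 7 cardiomyocyte markers summed to 45.4 to 45.5 TPM in Ad-GFP, 38.1 to 44.2 with Ad-JP2 and 28.3 to 32.0 with Ad-shJP2, without overlap. All 3 tested were lower in Ad-shJP2, where 37.7% of all genes tested were called lower. Of the 5 epicardial and mesothelial markers 4 were tested, with 1 higher and 3 lower in Ad-shJP2 (median -0.76), while their sums overlapped (21.7 to 22.3, 22.0 to 24.7 and 21.6 to 24.9 TPM). The 6 pericyte and smooth muscle markers summed to 8.70 to 9.06, 9.02 to 9.37 and 6.96 to 7.87 TPM, lower in every Ad-shJP2 library. Of these markers, 1 of 2 tested was called lower there, near the share over all genes, and Kcnj8 and Abcc9 were at or near 0. The part of these lists was not tested either.

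In Ad-GFP the 10 messages fell into an abundant and a scarce set. Klf2 was highest at 40.9 ± 0.73 TPM (SD, n = 3), followed by Klf3 at 30.9 ± 3.49, Klf4 at 25.2 ± 0.71, Klf6 at 24.1 ± 1.25, Klf13 at 19.4 ± 2.29 and Klf10 at 12.1 ± 0.77 TPM. Only Klf4 and Klf6 overlapped among these 6 when neighbours in the order were compared library by library. Klf9, Klf7, Klf5 and Klf15 lay between 1.06 and 1.36 TPM on average, and each of these overlapped its neighbour. The scarce set rested on about 69 to 208 reads per library in Ad-GFP, and the abundant set on about 809 to 3295. The order changed with the virus. Klf6 was first in Ad-JP2 (59.1 TPM). In Ad-shJP2 Klf6 (5.92 TPM) stood behind Klf10 and Klf13 too, besides Klf3 and Klf4, while Klf2 was first again at 38.6 TPM.

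**Figure D1:**
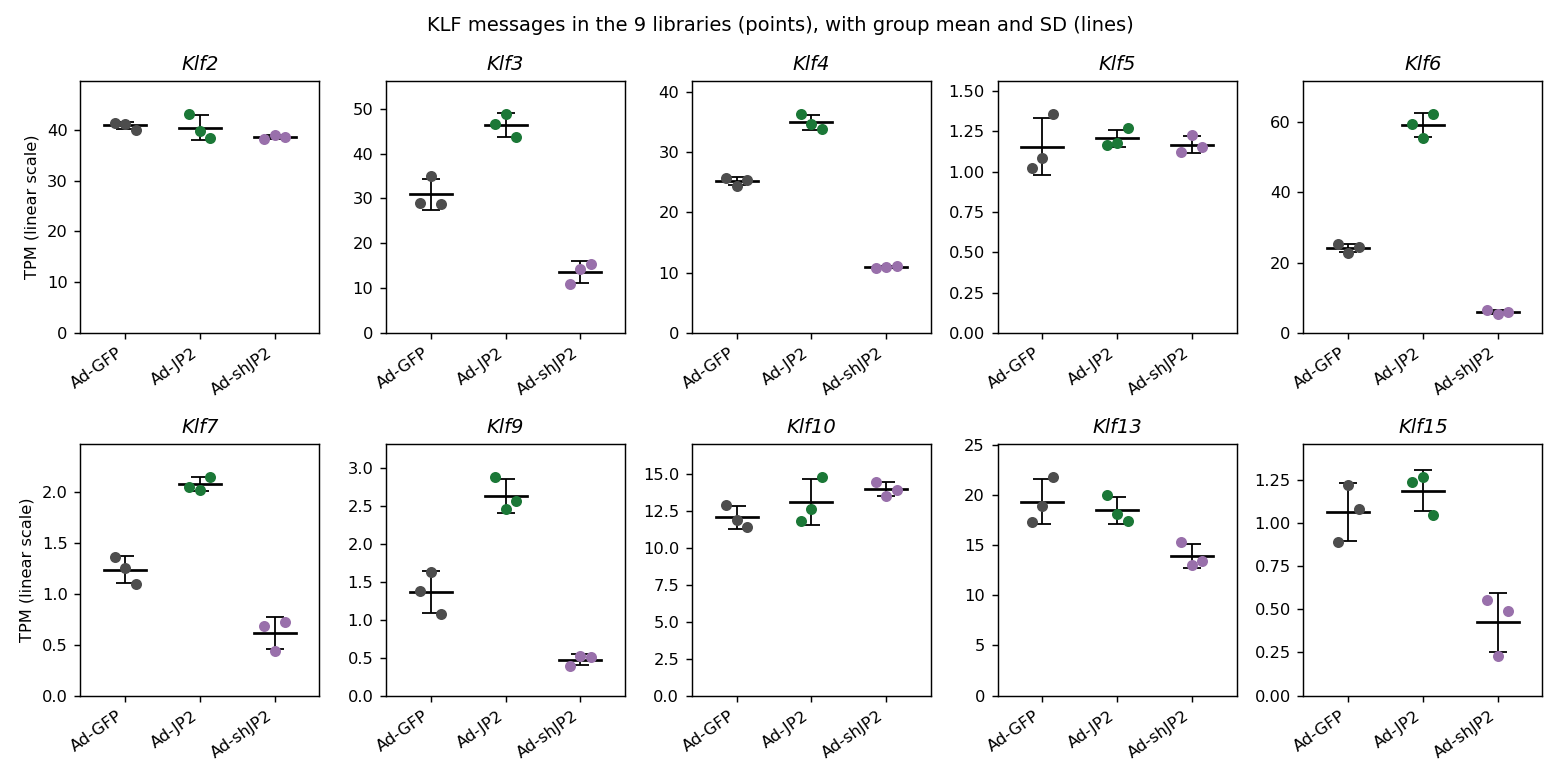
TPM of each KLF gene in the 9 libraries (points) by virus group, with the group mean (horizontal line) and SD (bars); each panel has its own linear axis from 0. Klf3, Klf4, Klf6, Klf7 and Klf9 stepped up under Ad-JP2 and down under Ad-shJP2, and Klf13 and Klf15 were low in Ad-shJP2. Klf2, Klf5 and Klf10 were called in neither comparison, with Klf2 just under and Klf10 just above the control range in Ad-shJP2.

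With junctophilin-2 overexpressed, Klf6 rose most, and Klf9, Klf3, Klf4 and Klf7 rose as well. Of the 10 genes, all of which passed the filter on low values, 5 were called higher and 0 lower in Ad-JP2 against Ad-GFP at a limma adjusted p under 0.05. Over all 14215 genes tested 13.4% were called higher and 1.64% lower (15% in all). Library values of the same 5 genes did not overlap between groups, where 22.4% of all genes tested were higher and 9.74% lower without overlap. The median log2 fold change was 0.28 over the 10 genes and 0.01 over all genes tested. The count was 3 after correction for GC content and length, and 3 without Ad-GFP replicate 3. Quantile normalization changed the split over all genes from 1902 higher and 233 lower to 1462 and 748, and 4 KLF genes were higher and 0 lower there.

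With the hairpin virus, Klf6 fell most, and Klf9, Klf15, Klf4, Klf3, Klf7 and Klf13 fell as well. Of the 10 genes, 7 were called lower and 0 higher in Ad-shJP2 against Ad-GFP, where 37.7% of all genes tested were called lower and 21.8% higher (59.4% in all). Library values did not overlap for 9 genes, with Klf10 higher and 8 lower, where 40.9% of all genes were lower and 24.5% higher without overlap. The median log2 fold change was -0.50 over the 10 genes and -0.11 over all. Klf7, Klf9 and Klf15 were under 1 TPM in every Ad-shJP2 library and passed the filter through the other groups. Without a filter beyond a value above 0 in 3 libraries, 7 were lower as well. Scaled by median of ratios, the split over all genes went from 3093 higher and 5353 lower to 4157 and 4333, and the KLF genes were 1 higher and 7 lower. With quantile normalization it was 4233 and 3849, with 1 KLF gene higher and 5 lower. The comparisons share the Ad-GFP libraries, so a high or low Ad-GFP value moves both.

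Klf6, an activator that is induced by injury and acts on TGF-beta pathway genes, had the widest range of the family. Its TPM was 25.2, 22.8 and 24.5 in Ad-GFP, 59.5, 55.4 and 62.3 under Ad-JP2 and 6.40, 5.30 and 6.06 under Ad-shJP2. The 3 groups were far apart, and no library overlapped another group. Ad-JP2 was 2.45-fold above Ad-GFP (a log2 difference of 1.26, SE 0.07, limma adjusted p = 1.0e-05). Ad-shJP2 was 4.08-fold below Ad-GFP (a log2 difference of -1.86, SE 0.07, limma adjusted p = 7.4e-08). Between the highest and the lowest group the ratio was 9.98.

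Klf4, a reprogramming factor that also represses contractile genes in smooth muscle, moved in the same directions as Klf6 by smaller amounts. It stood at 25.7, 24.4 and 25.4 TPM in Ad-GFP, 36.3, 34.6 and 33.8 under Ad-JP2 and 10.8, 10.9 and 11.1 under Ad-shJP2. All Ad-JP2 libraries were above and all Ad-shJP2 libraries below the control range. The rise was 1.39-fold (log2 fold change 0.46, SE 0.04, limma adjusted p = 0.00014) and the fall 2.31-fold (log2 fold change -1.14, SE 0.04, limma adjusted p = 7.3e-08).

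Klf2, Klf5 and Klf7 completed the activators. Klf2, which is induced by laminar flow in endothelium and holds T cells quiescent, was at 41.5, 41.2 and 40.1 TPM in Ad-GFP, 43.2, 39.8 and 38.5 under Ad-JP2 and 38.2, 39.0 and 38.7 under Ad-shJP2. The Ad-JP2 values lay around the control values, and the Ad-shJP2 values just under them. Its log2 fold change was -0.02 in Ad-JP2 (95% confidence interval -0.12 to 0.09) and -0.08 in Ad-shJP2 (-0.18 to 0.02), and neither passed (limma adjusted p = 0.887 and 0.153). The second passed after GC and length correction (-0.35, adjusted p = 0.0001). Klf5, a growth-promoting factor of smooth muscle and fibroblasts, was at 1.02 to 1.36 TPM in Ad-GFP, 1.17 to 1.27 under Ad-JP2 and 1.12 to 1.23 under Ad-shJP2, with all groups overlapping. The intervals of its log2 fold changes reached from -0.18 to 0.25 and from -0.21 to 0.23, so a difference under about that size was not detectable at about 46 to 104 reads per library.

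Klf7, known for axon growth and as a repressor of adipocyte differentiation, was scarce but ordered like Klf6. Its TPM was 1.36, 1.25 and 1.09 in Ad-GFP, 2.05, 2.02 and 2.15 under Ad-JP2 and 0.684, 0.437 and 0.722 under Ad-shJP2. The groups did not overlap. The rise was 1.68-fold (log2 fold change 0.46, SE 0.10, limma adjusted p = 0.0162) and the fall 2.01-fold (log2 fold change -0.47, SE 0.10, limma adjusted p = 0.0039). Log2 changes understate the ratio here, because 1 is added to a TPM near 1. The rise lost its call without Ad-GFP replicate 3 (limma adjusted p = 0.0636), without Ad-JP2 replicate 3 (0.0536), with a pseudocount of 0.1 (0.0569) and with quantile normalization (0.0756). The fall lost its call with quantile normalization (-0.22, limma adjusted p = 0.113). After GC and length correction neither difference passed (0.14 and -0.02, limma adjusted p = 0.373 and 0.895).

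Klf3, the CtBP-binding repressor, was the most abundant gene after Klf2 in Ad-GFP. It stood at 29.1, 34.96 and 28.8 TPM in Ad-GFP, 46.6, 48.9 and 43.7 under Ad-JP2 and 10.8, 14.3 and 15.4 under Ad-shJP2. Ad-GFP replicate 2 was above the other 2 control libraries but below every Ad-JP2 library. The rise was 1.5-fold (log2 fold change 0.57, SE 0.12, limma adjusted p = 0.012) and the fall 2.29-fold (log2 fold change -1.14, SE 0.12, limma adjusted p = 4.2e-05). The rise lay just over the threshold without Ad-GFP replicate 1, Ad-GFP replicate 3 or Ad-JP2 replicate 2 (limma adjusted p = 0.0503, 0.0509 and 0.0512) and after GC and length correction (0.40, adjusted p = 0.0544), while the fall passed in each of these.

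The SIN3A-binding repressors did not move together. Klf9, a target of glucocorticoid and thyroid hormone receptors, was at 1.38, 1.63 and 1.08 TPM in Ad-GFP, 2.89, 2.45 and 2.56 under Ad-JP2 and 0.391, 0.527 and 0.503 under Ad-shJP2. No library overlapped another group, and the Ad-shJP2 values rested on about 21 to 45 reads. The rise was 1.93-fold (log2 fold change 0.63, SE 0.11, limma adjusted p = 0.0051) and the fall 2.88-fold (log2 fold change -0.68, SE 0.11, limma adjusted p = 0.00075). Both passed after GC and length correction (0.47 and -0.38, limma adjusted p = 0.0193 and 0.0154).

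Klf10, first described as a TGF-beta-inducible early gene, was at 12.9, 11.9 and 11.4 TPM in Ad-GFP, 11.9, 12.6 and 14.8 under Ad-JP2 and 14.5, 13.5 and 13.9 under Ad-shJP2. The Ad-shJP2 libraries lay just above the control range, and the Ad-JP2 libraries overlapped both. The log2 fold change was 0.11 in Ad-JP2 (95% confidence interval -0.08 to 0.29) and 0.20 in Ad-shJP2 (0.01 to 0.39), and neither passed (limma adjusted p = 0.495 and 0.0668). In Ad-shJP2 it was called higher after scaling by median of ratios (0.30, limma adjusted p = 0.0145), quantile normalization (0.36, 0.0088), GC and length correction (0.36, 0.0041), a fit of the 6 libraries alone (0.0336) and without Ad-JP2 replicate 3 (0.0249).

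Klf13, an activator of Ccl5 in T cells, was at 17.4, 18.9 and 21.9 TPM in Ad-GFP, 19.98, 18.1 and 17.4 under Ad-JP2 and 15.3, 13.0 and 13.4 under Ad-shJP2. Control and Ad-JP2 libraries overlapped fully, and the Ad-shJP2 libraries lay below both. It was 1.39-fold lower in Ad-shJP2 (log2 fold change -0.45, SE 0.09, limma adjusted p = 0.0029) and did not pass in Ad-JP2 (-0.06, 95% confidence interval -0.27 to 0.15). Klf15, a glucocorticoid-induced factor of metabolism that restrains matrix genes in heart cells, was at 0.890, 1.22 and 1.08 TPM in Ad-GFP, 1.24, 1.27 and 1.05 under Ad-JP2 and 0.554, 0.231 and 0.492 under Ad-shJP2. The first 2 groups overlapped and the third was lower. It was 2.50-fold lower in Ad-shJP2 (log2 fold change -0.54, SE 0.12, limma adjusted p = 0.0047), on about 14 to 29 reads per Ad-shJP2 library, and lost this call with quantile normalization (-0.27, adjusted p = 0.112). In Ad-JP2 its log2 fold change of 0.08 did not pass (95% confidence interval -0.20 to 0.37).

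**Figure D2:**
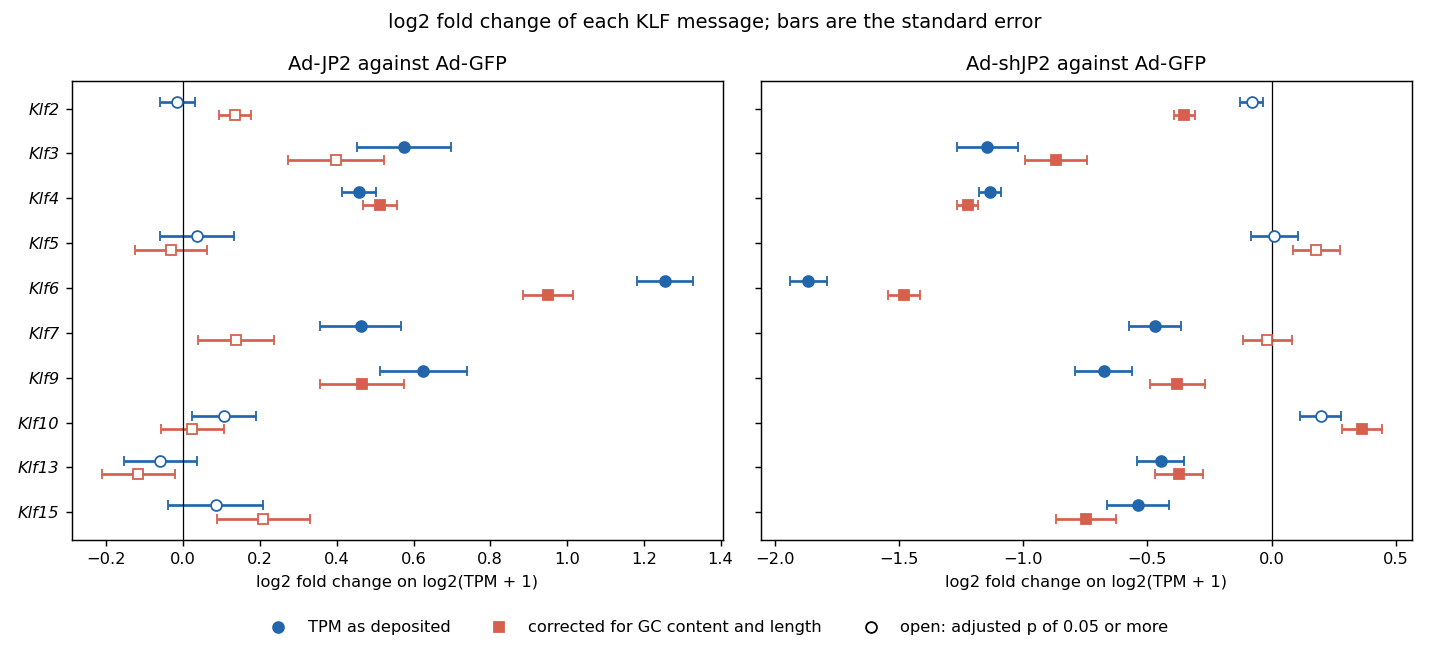
Log2 fold change of each KLF gene on log2(TPM + 1) in Ad-JP2 (left) and Ad-shJP2 (right) against Ad-GFP; circles are TPM as deposited, squares are values corrected for GC content and length, bars are the standard error and open symbols did not pass adjusted p 0.05. Klf6 is farthest from 0 on both sides (1.26 and -1.86, and 0.95 and -1.48 when corrected), and the corrected values of Klf7 are near 0.

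The direct comparison of Ad-JP2 with Ad-shJP2 uses the same libraries again. Of the 10 genes 7 were called higher in Ad-JP2 and 0 lower, where 40.3% of all genes tested were called higher and 24.1% lower (64.4% in all). Library values did not overlap for 7 genes, where 41.7% of all genes were higher and 25.4% lower without overlap. After Klf6 the ratios were 5.56 for Klf9, 3.43 for Klf3, 3.37 for Klf7, 3.20 for Klf4, 2.79 for Klf15 and 1.33 for Klf13. Klf2, Klf5 and Klf10 had ratios of 1.05, 1.03 and 0.94 and did not pass (limma adjusted p = 0.234, 0.836 and 0.364). Scaled by median of ratios, the split over all genes went from 5731 higher and 3421 lower to 4735 and 4634, and the same count of KLF genes was higher and lower. With quantile normalization it was 4026 and 5570, with 5 KLF genes higher and 2 lower, and after GC and length correction 6812 and 2502 (48.6% and 17.8%), with 7 higher and 1 lower. Quantile normalization ended the calls of Klf13 (0.14, limma adjusted p = 0.195) and Klf15 (0.25, limma adjusted p = 0.123) and called Klf5 (-0.31) and Klf10 (-0.37) lower. GC and length correction ended the call of Klf7 (0.15, limma adjusted p = 0.192), called Klf2 higher (0.49, limma adjusted p = 8.9e-06) and called Klf10 lower (-0.34, limma adjusted p = 0.005). Klf13 also lost its call when that correction was joined with the replicate block (limma adjusted p = 0.0617), a fit added after the data were seen.

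Summed over the 10 genes, KLF message was 157 ± 1.58 TPM in Ad-GFP, 219.6 ± 4.57 under Ad-JP2 and 99.5 ± 1.63 under Ad-shJP2 (SD, n = 3). The make-up of the pool differed as well. Klf2 made up 25.99 ± 0.47% of it in Ad-GFP, 18.4 ± 0.76% under Ad-JP2 and 38.8 ± 0.74% under Ad-shJP2, while its own level did not pass the test. Klf6 made up 15.3 ± 0.94%, 26.9 ± 1.56% and 5.94 ± 0.55%. Klf4 kept the same share in Ad-GFP and Ad-JP2 within the spread (16.0 ± 0.60% and 15.9 ± 0.32%) and had 10.95 ± 0.08% in Ad-shJP2.

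**Figure D3:**
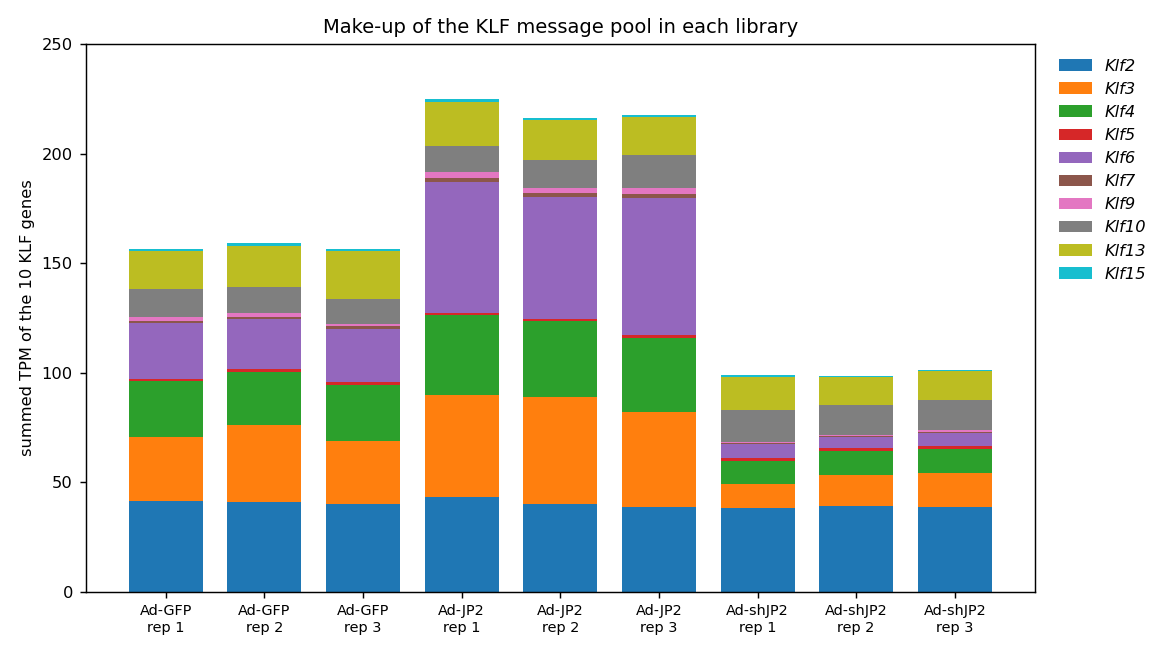
Summed TPM of the 10 KLF genes in each library, stacked by gene on a linear axis from 0. The sums were 156 to 159 TPM in Ad-GFP, 216 to 225 under Ad-JP2 and 98.5 to 101 under Ad-shJP2, with the Klf6 block widest under Ad-JP2 and thinnest under Ad-shJP2 and the Klf2 block of nearly the same height in all 9.

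The GC content of a transcript moved with its fold change across all genes, in opposite directions in the 2 comparisons. Genes of 40 to 42% GC had a median log2 fold change of 0.29 under Ad-JP2 and -0.42 under Ad-shJP2, and genes of 54 to 56% GC had -0.03 and 0.04. Klf6 had the lowest GC content of the family (42.4% in its longest transcript), followed by Klf7 (45.3%), Klf3 (45.7%), Klf10 (46.9%), Klf9 (47.5%), Klf5 (47.9%), Klf4 (54.6%), Klf15 (54.9%), Klf13 (55.5%) and Klf2 (61.6%). The 976 tested genes within 1 percentage point of Klf6 had medians of 0.23 and -0.40, against 1.26 and -1.86 for Klf6 itself. The 1496 genes near Klf4 had medians of -0.03 and 0.04, against 0.46 and -1.14 for Klf4. Those near Klf7 had 0.10 and -0.27, against 0.46 and -0.47. Near Klf3 the medians were 0.09 and -0.24, against 0.57 and -1.14. Near Klf9 they were 0.04 and -0.20, against 0.63 and -0.68, and near Klf15 -0.03 and 0.04, against 0.08 and -0.54. After correction for GC content and length 3 of the 10 genes (Klf4, Klf6 and Klf9) were higher in Ad-JP2, where 15.9% of all genes corrected were called higher and 3.38% lower. In Ad-shJP2 7 were lower and 1 higher after correction, where 40.9% were called lower and 18.2% higher: Klf2 joined the lower genes, Klf7 left them and Klf10 was higher. The correction takes GC content and length together, and the part of each was not separated. Genes within 1 percentage point of Klf2 in GC content had a median of 0.03 in Ad-shJP2. Klf2 itself was at -0.08 as deposited and -0.35 corrected.

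**Figure D4:**
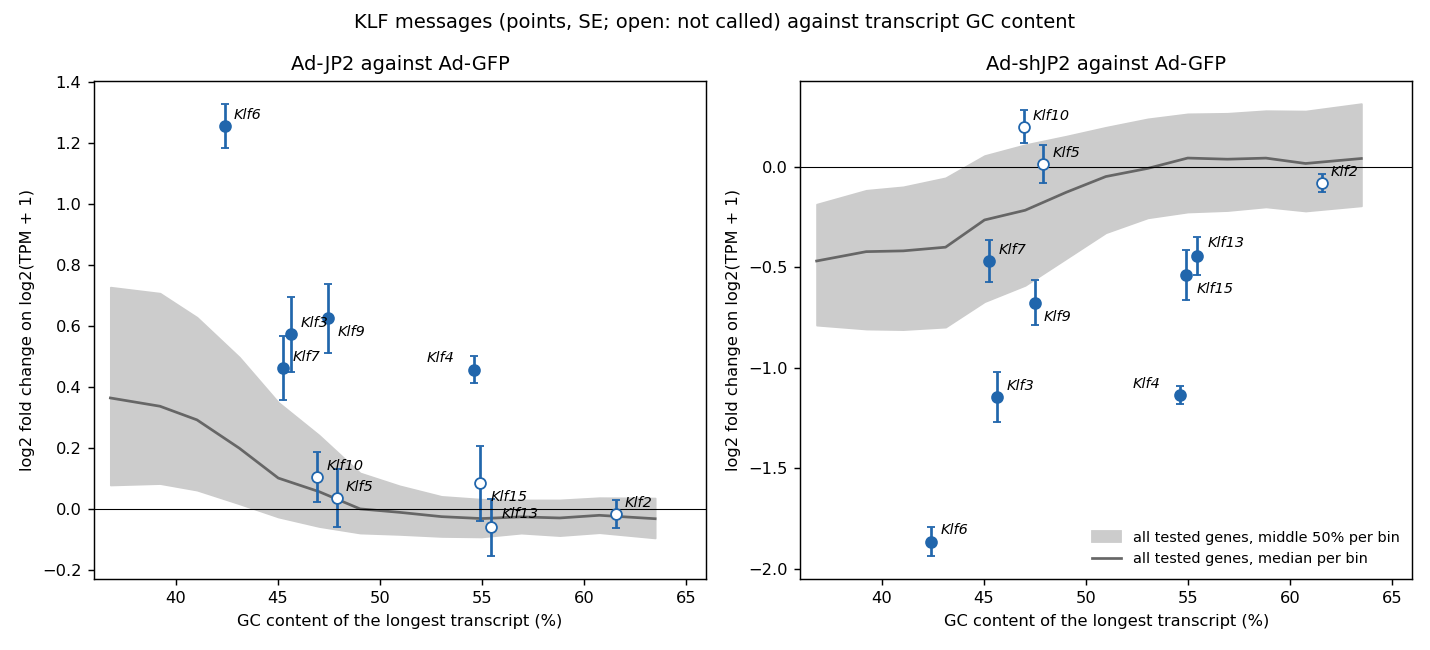
Log2 fold change of each KLF gene (points with SE; open points were not called) against the GC content of its longest transcript in percent, for Ad-JP2 (left) and Ad-shJP2 (right) against Ad-GFP. The grey line and band are the median and the middle 50% of all tested genes per bin of GC content. Klf3, Klf4, Klf6, Klf9 and Klf15 stand outside the band in both comparisons, though Klf15 was not called in Ad-JP2. Klf7 is outside in Ad-JP2 only, Klf10 and Klf13 in Ad-shJP2 only, and Klf2 and Klf5 are inside in both.

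The messages also differed in the pentamer ATTTA, the core of AU-rich elements that mark short-lived RNAs. The longest transcript of Klf7 held 18, those of Klf3, Klf6 and Klf9 held 8 each, Klf5 and Klf10 held 5 each, Klf13 held 3, Klf15 held 2, and Klf2 and Klf4 held 1 each. Per kilobase this was 1.49 to 2.35 in the 6 genes with 5 or more, against a median of 0.75 over the genes tested, and 0.33 to 0.81 in the other 4. Klf3, Klf6, Klf7 and Klf9 of the first set and Klf4 of the second were called higher in Ad-JP2. The first 6 genes are also those of lowest GC content (42.4 to 47.9%), so the 2 traits cannot be told apart here. The count covers the whole transcript, and a link of ATTTA to the changes was not tested.

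Other KLF genes were listed in 7 rows of the table, of which 3 passed the filter on low values. Klf16, a SIN3A-binding repressor, was at 21.5, 19.9 and 19.3 TPM in Ad-GFP, 20.3, 21.2 and 19.7 under Ad-JP2 and 30.9, 32.6 and 31.3 under Ad-shJP2. It was thus higher in every Ad-shJP2 library (log2 fold change 0.62, SE 0.05, limma adjusted p = 8.1e-06; 0.45 after GC and length correction). Klf12, a CtBP-binding repressor like Klf3, was at 0.870, 0.635 and 1.055 TPM in Ad-GFP, 1.22, 1.07 and 1.12 with Ad-JP2, and 0.104, 0.220 and 0.136 with Ad-shJP2 (log2 fold change -0.68, limma adjusted p = 0.00081). It passed the filter only through Ad-JP2, where all 3 libraries exceeded 1 TPM. Klf11 passed in neither comparison with Ad-GFP (0.14 and -0.07, limma adjusted p = 0.289 and 0.415). Klf14 was listed at 0 in all 9 libraries, and Klf1, Klf8 and Klf17 stayed under 0.22 TPM.

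The SP factors bind the same GC boxes. Of 9 listed, 4 were tested, with 2 higher and 0 lower under Ad-JP2 and 0 higher and 2 lower under Ad-shJP2. Over all genes tested 13.4% were higher in Ad-JP2, and 37.7% were lower in Ad-shJP2, so 2 of 4 lower is near the background. Sp1 was at 4.76, 4.92 and 4.96 TPM in Ad-GFP, 10.3, 10.8 and 11.2 under Ad-JP2 and 1.93, 1.31 and 1.35 under Ad-shJP2. Its groups stood in the order of Klf6 (log2 fold changes 1.00 and -1.22, limma adjusted p = 0.00016 and 6.3e-06). Sp3 had log2 fold changes of 1.45 and -0.43 (limma adjusted p = 0.00019 and 0.0318), and its fall was not called after GC and length correction (0.09, adjusted p = 0.601). Sp2 and Sp5 did not pass in either comparison.

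Partners and regulators of the family were read from lists, each set beside the 13.4% of all genes called higher under Ad-JP2 and the 37.7% called lower and 21.8% called higher under Ad-shJP2. Of 13 corepressor and coactivator genes, 5 were higher and 0 lower in Ad-JP2 (median 0.12), and 2 were higher and 9 lower in Ad-shJP2 (median -0.35). The acetyltransferase Ep300 went from 4.22 TPM to 9.26 and 1.82, the corepressor Ncor1 from 8.14 to 16.9 and 4.39, and the acetyltransferase Kat2b was 61.6% lower in Ad-shJP2. Of 6 ubiquitin ligases that act on KLF proteins, 3 were higher in Ad-JP2 (median 0.17), and 1 was higher and 3 lower in Ad-shJP2 (median -0.27). Wwp1, which targets Klf2 and Klf5 for degradation, was at 3.80 ± 0.20 TPM in Ad-GFP, 10.96 ± 0.17 under Ad-JP2 and 1.24 ± 0.21 under Ad-shJP2 (SD, n = 3), with limma adjusted p = 1.7e-05 and 4.4e-06. Fbxw7 had log2 fold changes of 0.43 and -0.95, and Siah1a of 0.27 and -0.39. After GC and length correction 1 of the 6, Wwp1, was higher in Ad-JP2, near the 15.9% of all genes called higher there.

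The kinase branch from MEK5 over ERK5 to MEF2 factors, which induces Klf2 and Klf4 in endothelium, had 2 of 10 genes higher in Ad-JP2 (median 0.05), and 1 higher and 6 lower in Ad-shJP2 (median -0.24). Mef2a rose by 1.06 under Ad-JP2 and fell by 0.46 under Ad-shJP2, and Map3k2 rose by 0.77 in Ad-JP2, the only group in which it reached 1 TPM and so the group through which it passed the filter. The class II deacetylases Hdac4 and Hdac5, which hold MEF2 factors inactive, fell by 0.77 and 0.41 in Ad-shJP2. After GC and length correction the Ad-shJP2 fall of Mef2a was not called (0.07, limma adjusted p = 0.562), nor was the Ad-JP2 rise of Map3k2 (0.14, limma adjusted p = 0.378).

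Glucocorticoid receptor and target genes, the class to which Klf9 and Klf15 belong, had 1 of 11 higher in Ad-JP2 (median 0.02). After GC and length correction 4 were higher there, beside 15.9% of all genes. In Ad-shJP2 6 were higher and 4 lower (median 0.27), the lower share being close to the 37.7% over all genes. The 1 higher in Ad-JP2 as deposited was the receptor gene Nr3c1 itself, at 7.97, 7.36 and 7.72 TPM in Ad-GFP, 19.2, 19.6 and 19.0 under Ad-JP2 and 2.42, 2.04 and 3.29 under Ad-shJP2 (log2 fold changes 1.22 and -1.29, limma adjusted p = 0.00011 and 1.1e-05). Its groups stood in the order of Klf9, while the targets Errfi1 (0.86) and Ddit4 (0.81) rose in Ad-shJP2. Circadian clock genes, among whose known outputs Klf9, Klf10 and Klf15 are counted, had 3 of 15 higher in Ad-JP2 (median 0.02), and 1 higher and 7 lower in Ad-shJP2 (median -0.29). Clock passed the filter through Ad-JP2 alone, the group where it was high (0.871, 0.743 and 1.132 TPM in Ad-GFP against 3.07 to 3.43). Clock (1.14), Nr1d2 (0.84) and Arntl (0.20) rose under Ad-JP2 and Dbp (-1.01), Nr1d2 (-0.98) and Bhlhe40 (-0.96) fell under Ad-shJP2.

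The TGF-beta branch, which induces Klf10, had 4 of 14 genes higher and 1 lower in Ad-JP2 (median 0.03), and 2 higher and 10 lower in Ad-shJP2 (median -0.58). Skil rose by 0.66 under Ad-JP2 and stood at 4.89, 8.32 and 1.68 TPM in Ad-GFP, Ad-JP2 and Ad-shJP2. The inhibitor Smad7 fell by 1.22 under Ad-shJP2. Tgfbr1 (1.37 and -1.24) and Tgfb2 (0.68 and -1.44) changed in both comparisons. Klf10 passed in neither comparison beside them. Genes known as targets of KLF proteins in other cells had 0 of 14 higher and 1 lower in Ad-JP2 (median -0.01), with Tagln the lower gene (-0.08; 0.08 after GC and length correction, limma adjusted p = 0.0342 in both). After correction 5 were higher and 1 lower, beside 15.9% and 3.38% of all genes. In Ad-shJP2 7 were higher and 5 lower (median 0.14). After correction these counts were 6 and 6 (median -0.09), beside 18.2% and 40.9% of all genes. Pdgfa, a growth factor gene that Klf5 activates, fell by 1.21, the cyclin gene Ccnd1 fell by 0.69, and Ccnb1 rose by 1.11. The matrix-associated gene Ccn2, which Klf15 represses in heart cells, was at 3215, 3187 and 3227 TPM in Ad-GFP and 2525, 2556 and 2518 in Ad-shJP2 (log2 fold change -0.34, limma adjusted p = 2.6e-06).

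**Figure D5:**
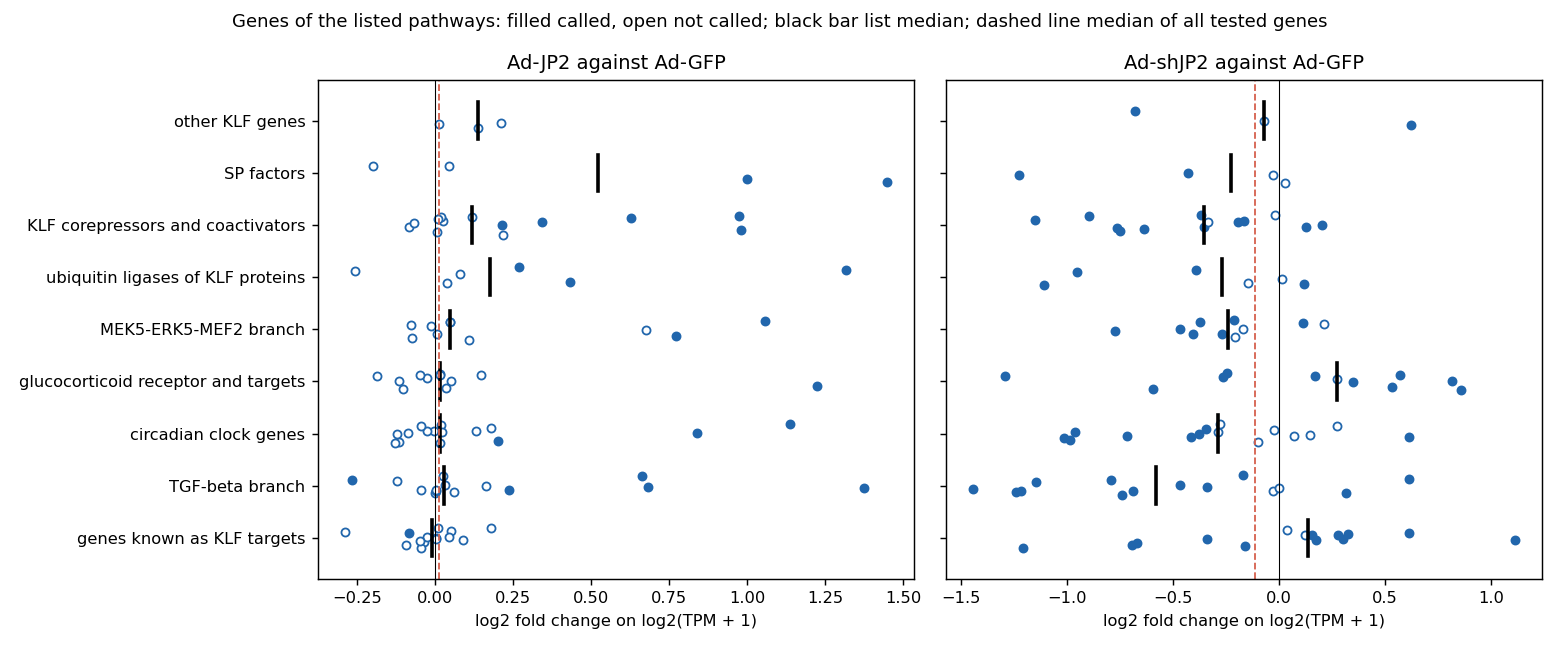
Log2 fold change of each tested gene of the listed partners, regulators and targets (points, filled where called) in Ad-JP2 (left) and Ad-shJP2 (right) against Ad-GFP; black bars are list medians and the dashed line is the median of all tested genes. List medians in Ad-JP2 run from -0.01 for KLF targets to 0.52 for SP factors, and in Ad-shJP2 from -0.58 for the TGF-beta branch to 0.27 for glucocorticoid genes.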

How the data were processed

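The study sequenced 9 stranded polyA libraries (TruSeq Stranded mRNA, per the labels' protocols). The authors deposited TPM per gene, beside columns of length and effective length; DRAGEN, Salmon, DESeq2 and build GRCm39 are named per the submitters' processing notes, and what each did, and in which version, is not given in the sources used. The 10 genes and all lists were chosen with earlier results of these data known.

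The 14215 genes that reached 1 TPM in 3 or more libraries were fitted as log2(TPM + 1) with limma 3.58.1 in R 4.3.3: 3 group means over all 9 libraries, a mean-variance trend, two-sided moderated tests and Benjamini-Hochberg adjustment over all genes tested. All adjusted p-values are from limma. Printed ratios are of group mean TPM. An exact permutation test of 3 against 3 libraries cannot go below p = 0.1.

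GC content came from the longest GENCODE M21 transcript (98.7% of genes tested), and the correction removed each library's spline trend over GC content and length. Read numbers are approximate: effective length matched Ad-GFP replicate 3 best, where 95.0% of low values lay within 0.1 of a whole read, against 41.8% to 60.6% elsewhere. Counting error only is covered by them. Named list genes were those called with the largest absolute log2 change, up to 3 for each list in each comparison. Klf11, Sp2, Sp5, Ccn2 and the marker genes were named after their values were seen, as were the genes whose promoter windows are printed.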

Additional observations from a re-analysis of the deposited data

How the results depend on the processing

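Single-gene results were recomputed for the 10 KLF genes in 3 comparisons, 30 in all. With TPM above 0 in at least 3 libraries as the filter, all 30 kept direction and side of the threshold, as did all 30 with the replicate block. The count of KLF genes called in Ad-JP2 was 5, and 3 after GC and length correction; leaving out single libraries gave 3 to 5, with 7 to 8 in Ad-shJP2 and 7 to 7 between Ad-JP2 and Ad-shJP2. With the replicate number as a block the counts were 5, 7 and 7; same-numbered libraries correlated at -0.11 to 0.11 in their deviations, so the numbers were not taken as pairs. Block and GC correction together, an alternative chosen after seeing the data, gave 4, 8 and 7.

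Changes of sign occurred only in genes that did not pass as deposited, and 1 of them then passed: Klf5 between Ad-JP2 and Ad-shJP2 was -0.31 with quantile normalization (limma adjusted p = 0.0207), -0.048 scaled by median of ratios and -0.21 corrected for GC content and length, with or without the block. In Ad-JP2 against Ad-GFP, Klf2 was 0.13 and Klf5 -0.032 when corrected, with or without the block, and quantile normalization gave -0.075 for Klf5, -0.011 for Klf10 and -0.020 for Klf15. Leaving out single libraries gave -0.061 to 0.020 for Klf2 (above 0 without Ad-JP2 replicate 3), -0.0074 to 0.10 for Klf5 (below 0 without Ad-GFP replicate 1) and -0.13 to 0.027 for Klf13 (above 0 without Ad-GFP replicate 3). In Ad-shJP2 against Ad-GFP, Klf2 was 0.031 scaled by median of ratios, and leaving out single libraries gave -0.032 to 0.078 for Klf5 (below 0 without Ad-GFP replicate 1, Ad-GFP replicate 2 or Ad-shJP2 replicate 2). Between Ad-JP2 and Ad-shJP2, Klf2 was -0.065 scaled by median of ratios and -0.042 under quantile normalization. The cause of these changes was not tested. Quantile normalization moved the median of all genes from -0.11 to 0.02 in Ad-shJP2 against Ad-GFP and from 0.10 to -0.11 between Ad-JP2 and Ad-shJP2, so changes there are relative to that shift. Depth limits Klf5, Klf7, Klf9 and Klf15 most.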

Other observations

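The gene whose values lay closest to each KLF gene over the 9 libraries was taken by Pearson correlation of log2(TPM + 1), as a description over libraries that fall into 3 groups and share depth and base composition. For Klf4 it was Cltc, the clathrin heavy chain gene (r = 0.999, log2 fold changes 0.44 in Ad-JP2 and -1.14 in Ad-shJP2). For Klf6 it was Srp54c, a signal recognition particle gene (r = 0.999, 1.09 and -1.51), which has near-identical copies that can share its reads. For Klf3 it was Efcab14 (r = 0.994), for Klf9 Phactr2 (r = 0.994) and for Klf7 the deubiquitinase gene Otud6b (r = 0.993). Klf15 lay closest to Sh3bp5l (r = 0.988) and Klf13 to Spsb3 (r = 0.979). For the genes that passed in no comparison as deposited, the pairs were Klf2 and Pex16 (r = 0.935), Klf10 and Abhd10 (r = 0.923), and Klf5 and Lhpp (r = 0.849). Their lower r stands beside small group differences and is no separate result, and its source was not tested.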
